A study of Mus musculus with 18 samples.

Results

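Total mRNA from 6 libraries of RAW264.7 cells, a mouse macrophage line, was compared here: 3 libraries of cells given lipopolysaccharide (LPS) together with torin1, and 3 libraries of control cells. The members were chosen by their labels (RNA source total mRNA, treatment 6h_LPS_Torin1 or Veh) and make up 6 of the 18 libraries of the series. The series also holds LPS-only cells and, from every culture, mRNA taken from polysomes. The treated cells received 100 nM torin1 in combination with LPS at 500 ng/mL for 6 h, after 15 min of pretreatment with torin1. The LPS was from Salmonella enterica of the serotype minnesota Re 595. The control group, labelled Veh, is described in the treatment protocol as given DMSO vehicle. All groups are the same cell line, for which the labels name no genetic change, so they stand for 1 immortalized line and not for primary macrophages. Each treatment has 3 replicates from independent experiments, numbered 1 to 3, and each replicate holds 1 culture of each treatment. A group given torin1 without LPS is not among the libraries analysed here, so the parts of LPS and of torin1 in the difference from control cannot be told apart.

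LPS, a cell wall component of Gram-negative bacteria, is sensed by Toll-like receptor 4 with its partners CD14 and MD-2. The adaptors MyD88 and TRIF lead from there to NF-kB and MAP kinases, which switch on cytokine genes, and to IRF3 and interferon-beta, which through STAT factors switch on interferon-stimulated genes. mTOR is the kinase at the centre of mTORC1 and mTORC2. mTORC1 promotes protein, lipid and nucleotide synthesis and holds TFEB and TFE3, transcription factors of lysosomal and autophagy genes, in the cytosol. Torin1 blocks the active site of mTOR and thereby both complexes. The comparison describes how much of the LPS programme was present at 6 h in cells whose mTOR was inhibited.

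The 6 libraries held between 27800983 and 38175777 counts over 11243 protein-coding genes, the genes with at least 1 count in every library of the series. A gene that was silent in any library is thus absent from the table, and of the genes looked for by name Il6, Nos2 and Ifnb1 were not in it. All values below are CPM, read counts scaled to a common library size with TMM, and changes are log2 fold changes with their standard errors (SE). Mitochondrially encoded genes took 1.98% to 2.50% of the counts in the control libraries and 1.88% to 2.28% in the treated ones. All 10 macrophage markers on the list were in the table, and their summed level was 12336 to 13122 CPM in control cells and 11531 to 12587 CPM in treated cells. Within this sum the single markers moved both ways, with log2 changes from -1.48 to 1.98. Of the markers of other cell types, 1 of 8 for T cells (Lck), 1 of 6 for neutrophils (S100a8), 1 of 5 for endothelium (Cdh5) and none of 5 for B cells, 6 for fibroblasts and 5 for epithelium were in the table. Lck was at 3.48 to 5.29 CPM in control cells and 5.13 to 7.60 CPM in treated cells, S100a8 at 0.113 to 0.273 and 1.25 to 3.62 CPM, and Cdh5 at 0.273 to 0.704 and 0.0658 to 0.697 CPM. Their part in the results was not tested. In bulk RNA, fewer cells of a type and less RNA per cell cannot be told apart.

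Of the 11243 genes, 4115 (36.6%) were higher and 4151 (36.9%) were lower in LPS with torin1 than in control at a false discovery rate (FDR) of 0.25, the threshold of the study, in edgeR's quasi-likelihood test with the replicate number as a block. With an FDR of 0.05 and a log2 change of at least 1 in size, 1168 genes (10.4%) were higher and 885 (7.87%) were lower. The rises reached further than the falls, from 9.998 at the top to -5.55 at the bottom on the log2 scale. In LPS alone against the same 3 control libraries, 3971 genes (35.3%) were higher and 4252 (37.8%) lower. The direct comparison of LPS with torin1 against LPS alone, which is the test of the difference between both responses, called 3662 genes (32.6%) higher and 3534 (31.4%) lower. TMM puts the median log2 change of all genes at -0.01. Scaling by library totals alone moved it to -0.30 and the calls to 2455 higher and 6584 lower, so small changes below are relative to the median gene. The control and treated libraries did not overlap in 6882 of the 11243 genes (61.2%), so a lack of overlap between them was common.

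**Figure D1:**
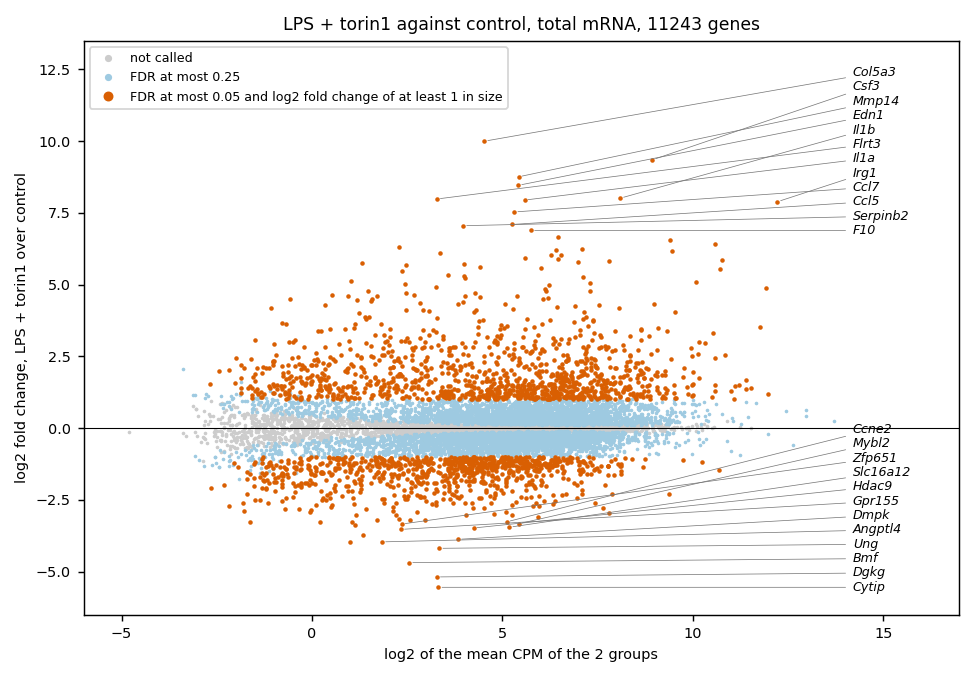
Log2 fold change of LPS with torin1 over control (vertical axis) against the log2 of the mean CPM of both groups (horizontal axis) for 11243 genes, 1 point per gene, with the 12 largest rises and 12 largest falls chosen by rule labelled. The 1168 higher and 885 lower genes past the stricter threshold are orange, and the rises extend to 9.998 while the falls end at -5.55.

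The 12 largest rises were Col5a3, Csf3, Mmp14, Edn1, Il1b, Flrt3, Il1a, Irg1, Ccl7, Ccl5, Serpinb2 and F10, of which the interleukins, the chemokines and Irg1 are described with their lists. Csf3, which encodes the granulocyte colony-stimulating factor G-CSF (chr11:98701263-98703629, plus strand, GRCm38), was at 0.456, 1.41 and 2.90 CPM in control cells and at 657, 1203 and 1072 CPM with LPS and torin1. The groups lay far apart in every experiment, with a log2 change of 9.35 ± 0.38 (edgeR adjusted p = 3.8e-07), and the level did not differ detectably from LPS alone (-0.21, edgeR adjusted p = 0.54). Mmp14, a membrane-anchored matrix metalloproteinase, went from 0.121, 0.2497 and 0.176 CPM to 104, 64.1 and 88.7 CPM. Its rise of 8.76 ± 0.20 (edgeR adjusted p = 1e-07) was larger than that with LPS alone, by 0.88 (edgeR adjusted p = 0.00065). Edn1, the vasoconstrictor endothelin-1, rose by 8.46, and Flrt3, a leucine-rich repeat membrane protein, by 7.98.

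Col5a3, a chain of type V collagen, had the largest log2 change of all, 9.998 ± 0.51, but its control libraries held only 1, 2 and 1 counts against 2430, 466 and 1212. The ratio of the summed counts was 1285 with a 95% exact interval of 501 to 4718, which covers counting error only. Flrt3 likewise rested on 3, 2 and 3 control counts, and its ratio was 269 (136.04 to 623). F10, the gene of coagulation factor X, was at 0.759, 1.04 and 0.732 CPM in control, 142, 73.8 and 104 CPM with LPS and torin1 and 21.3, 8.40 and 10.2 CPM with LPS alone. It rose by 6.89 ± 0.28 (edgeR adjusted p = 3.8e-07), and the excess over LPS alone was 3.06 ± 0.21 (edgeR adjusted p = 5.8e-05). Serpinb2, the plasminogen activator inhibitor PAI-2, showed the reverse order, with 0.152, 0.431 and 0.0878 CPM in control, 39.6, 36.5 and 17.1 CPM with LPS and torin1 and 575, 191 and 114 CPM with LPS alone. It still rose by 7.05 ± 0.46 (edgeR adjusted p = 3.7e-06), and its difference from LPS alone was -3.02 ± 0.29 (edgeR adjusted p = 0.00016).

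The deepest falls were in genes of quite different roles. Cytip, a regulator of leukocyte adhesion, went from 24.2, 15.7 and 18.6 CPM to 0.757, 0.0672 and 0.523 CPM, a change of -5.55 ± 0.41 (edgeR adjusted p = 7.1e-06). Dgkg, a diacylglycerol kinase, went from 20.1, 17.02 and 19.5 CPM to 0.526, 0.471 and 0.557 CPM (-5.19 ± 0.24, edgeR adjusted p = 6.6e-07). Neither gene's groups overlapped, as in 61.2% of all genes, and for Cytip the treated libraries held as few as 2 counts. Bmf, a pro-apoptotic BH3-only protein, changed by -4.69, Angptl4, an inhibitor of lipoprotein lipase, by -3.97, and Hdac9, a class IIa histone deacetylase, by -3.48. Slc16a12, a transporter of the monocarboxylate family, changed by -3.46, Gpr155, a lysosomal membrane protein, by -3.53, Dmpk, the myotonic dystrophy protein kinase, by -3.88 and Zfp651, a zinc finger protein, by -3.35. The other 3 of the 12 were cell cycle genes, described with DNA replication below: Ung, Mybl2 and Ccne2.

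Inflammatory cytokines rose nearly throughout, by less than with LPS alone for most. Of 29 on the list, 18 were in the table, and 17 rose while 1 fell, with a median log2 change of 3.01. The same genes had a median of 4.49 with LPS alone, where all 18 were higher. In the direct comparison 11 were lower and 1 higher than with LPS alone. Il1b, the pyrogenic cytokine interleukin-1 beta (chr2:129364570-129371139, minus strand), was at 0.547, 3.38 and 2.17 CPM in control, 501, 659.9 and 470.3 CPM with LPS and torin1 and 2933, 1155 and 1679.6 CPM with LPS alone. The treated libraries lay above every control library and below every LPS library. The rise was 8.01 ± 0.59 (edgeR adjusted p = 6.9e-06), and the distance from LPS alone -1.83 ± 0.43 (edgeR adjusted p = 0.0098).

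Il1a, its relative interleukin-1 alpha, followed the same order with 0.0911, 0.567 and 0.439 CPM in control, 80.8, 122.97 and 82.4 CPM with LPS and torin1 and 717, 306 and 422 CPM with LPS alone, a rise of 7.95 ± 0.50 (edgeR adjusted p = 3.2e-06). Tnf, the gene of tumour necrosis factor (chr17:35199381-35202007, minus strand), was at 269, 321 and 181 CPM in control, 1839, 2347 and 1972 CPM with LPS and torin1 and 1917, 2707 and 2529 CPM with LPS alone. Its rise of 3.01 ± 0.18 (edgeR adjusted p = 2.1e-06) differed from that with LPS alone by -0.22 ± 0.16, which was not called (edgeR adjusted p = 0.32). Il10, the anti-inflammatory interleukin-10, rose from 2.55, 0.840 and 0.907 CPM to 14.0, 9.68 and 7.07 CPM, against 103, 26.3 and 29.5 CPM with LPS alone. Its change was 2.98 ± 0.28 (edgeR adjusted p = 2.8e-05), and its difference from LPS alone was -2.13 ± 0.23 (edgeR adjusted p = 0.00024). The 1 cytokine of the list that fell was Vegfa, the vascular endothelial growth factor, at 6.41, 5.61 and 4.77 CPM in control and 2.93, 3.06 and 3.52 CPM with LPS and torin1 (-0.79 ± 0.25, edgeR adjusted p = 0.024). With LPS alone Vegfa was higher than control, by 1.04 (edgeR adjusted p = 0.0052).

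**Figure D2:**
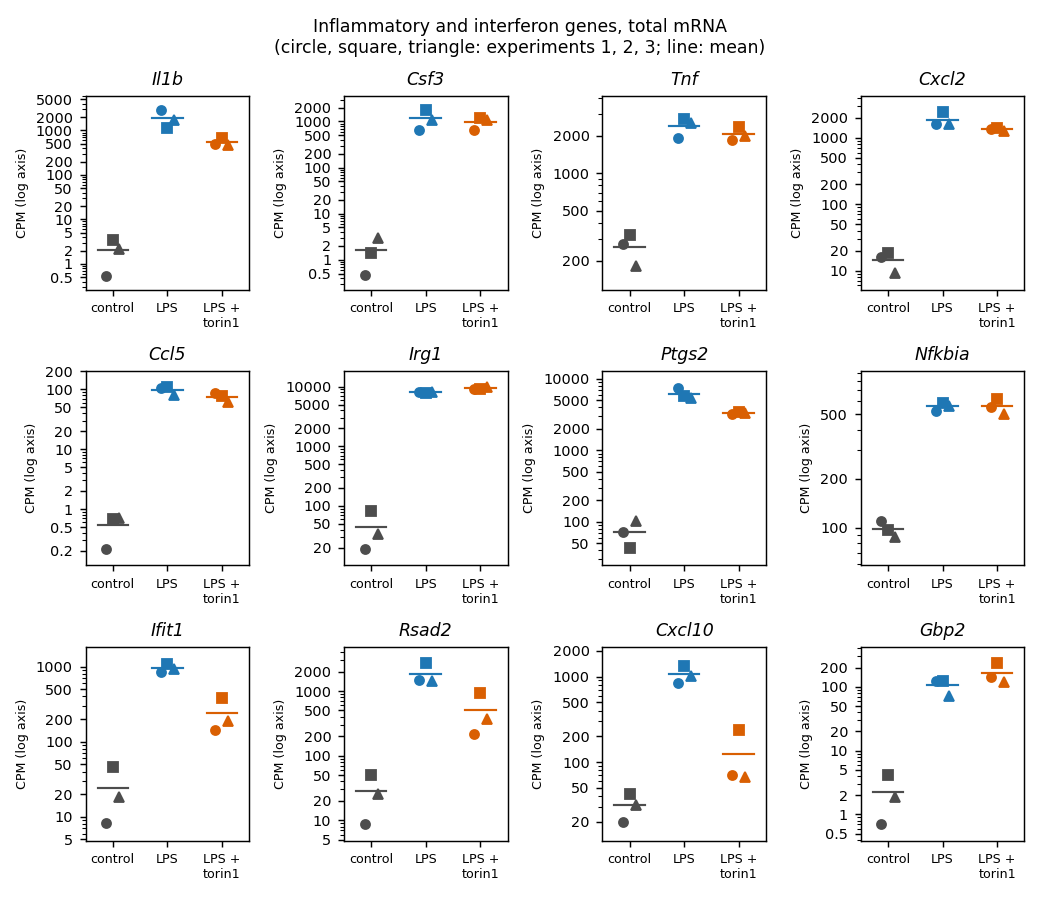
CPM on a log axis of 12 inflammatory and interferon genes in control, LPS and LPS + torin1 cells (horizontal axis), 1 symbol per library with a shape for each of 3 experiments and a line at the mean. Every gene shown stands above control with LPS + torin1. Il1b, Tnf, Cxcl2, Ccl5, Ptgs2, Ifit1, Rsad2 and Cxcl10 stand below LPS alone in all 3 experiments. Tnf and Nfkbia lie close to LPS alone. The panels are a selection, and listed genes that fell, such as Vegfa, Cxcl14 and Ptgs1, are not shown.

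Of the 26 chemokines listed, 13 were in the table; 11 rose and 1 fell, with a median of 4.72 against 4.93 with LPS alone. Ccl7, which attracts monocytes, went from 0.243, 0.409 and 0.615 CPM to 52.5, 110.5 and 74.0 CPM (7.53 ± 0.40, edgeR adjusted p = 1.3e-06). Ccl5, an attractant of T cells, went from 0.213, 0.681 and 0.702 CPM to 86.2, 77.2 and 61.8 CPM (7.10 ± 0.26, edgeR adjusted p = 3e-07). Both sets of treated libraries lay more than 5 log2 units above their controls. Cxcl2, an attractant of neutrophils, went from 15.8, 18.6 and 9.19 CPM to 1370.0, 1389.5 and 1254 CPM (6.57 ± 0.21, edgeR adjusted p = 2.7e-07), and its distance from LPS alone was -0.46 ± 0.16 (edgeR adjusted p = 0.047).

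Cxcl10, the interferon-inducible chemokine, kept only a small part of its LPS response. It was at 20.1, 42.8 and 31.6 CPM in control, 70.2, 235 and 66.1 CPM with LPS and torin1 and 846, 1344 and 1014 CPM with LPS alone (chr5:92346638-92348889, minus strand). The 3 groups did not overlap, with a rise of 1.82 ± 0.26 over control (edgeR adjusted p = 0.00035) and a distance of -3.32 ± 0.27 from LPS alone (edgeR adjusted p = 9.1e-05). Cxcl14, a chemokine made without stimulation in many tissues, fell from 15.9, 2.54 and 7.87 CPM to 1.71, 0.302 and 0.906 CPM (-3.18 ± 0.21, edgeR adjusted p = 3.7e-06). Its level differed between experiments by more than 5 times within each group, and it was lower in the treated library of all 3 experiments.

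The kB consensus, the 10-letter site bound by NF-kB, was searched on both strands in the 250 bases before each RefSeq transcription start (GRCm38.p6). Of the 52 cytokines, chemokines and NF-kB genes in the table, 36 had a window, and 15 of them (41.7%) held the consensus, against 473 of 9048 genes of the table with a window (5.23%) and 3.90% of all 32851 windows. Cxcl2 had the largest change among those 15, so its window (chr5:90903649-90903898, plus strand) is shown, 5′ to 3′ and ending at the base before the start. Capitals mark 2 overlapping matches in 1 stretch that begins 97 bases before the start. A match describes these letters and is not a shown binding site.

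Cxcl2: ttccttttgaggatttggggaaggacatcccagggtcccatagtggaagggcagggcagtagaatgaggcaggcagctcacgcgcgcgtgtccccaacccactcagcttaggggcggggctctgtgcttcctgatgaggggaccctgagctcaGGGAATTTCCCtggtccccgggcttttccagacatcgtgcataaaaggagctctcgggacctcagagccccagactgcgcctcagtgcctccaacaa

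NF-kB subunits and inhibitors rose by less than the cytokines, 17 of 21 being higher and 2 lower with a median of 1.06, close to the 1.02 with LPS alone. Nfkbia, the inhibitor IkB-alpha (chr12:55489410-55492647, minus strand), was at 110.6, 97.2 and 87.4 CPM in control and 556, 618 and 498 CPM with LPS and torin1 (2.500 ± 0.11, edgeR adjusted p = 5.3e-07). Its distance from LPS alone was -0.01 ± 0.10 (edgeR adjusted p = 0.95), so no difference was detected. Tnfaip3, the ubiquitin-editing inhibitor A20, went from 23.6, 29.1 and 17.6 CPM to 327, 272 and 241 CPM (3.57 ± 0.23, edgeR adjusted p = 3.4e-06). Nfkbiz, the nuclear cofactor IkB-zeta needed for secondary response genes, rose by 3.87 and was -1.04 away from LPS alone (edgeR adjusted p = 0.00037), and Tnip1, a partner of A20, rose by 2.67. Tnip3 changed by -0.56 and Commd1, which promotes turnover of RelA, by -0.27, a value that is not called at an FDR of 0.05.

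Among 36 Toll-like receptor pathway genes 26 rose and 4 fell, with a median of 0.86 (0.68 with LPS alone). The receptor gene Tlr4 was at 157, 120.2 and 121 CPM in control and 128, 151 and 142 CPM with LPS and torin1. These libraries overlapped, and the change of 0.11 ± 0.21 was not called (edgeR adjusted p = 0.68). Its co-receptor Cd14 was at 1246, 1166 and 1139 CPM and 3155, 3472 and 3136 CPM and rose by 1.46 ± 0.11 (edgeR adjusted p = 6.5e-06). The kinase genes Ikbke and Irak2 rose by 2.82 and 2.36, and the adaptor Traf1 by 2.45. Tlr9, the sensor of CpG DNA, fell from 10.4, 9.65 and 10.5 CPM to 3.42, 3.13 and 3.07 CPM (-1.66 ± 0.15, edgeR adjusted p = 2.7e-05). With LPS alone Tlr9 was -0.23 from control and was called lower (edgeR adjusted p = 0.19). Traf3 and Tab1, signalling adaptors, changed by -0.39 and -0.36.

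Of 22 AP-1, EGR, ATF3 and MYC transcription factors 17 rose and 2 fell, with a median of 1.23 (1.47 with LPS alone). Atf3, a repressor of cytokine genes, went from 72.4, 104 and 38.7 CPM to 630.3, 952 and 584 CPM (3.43 ± 0.22, edgeR adjusted p = 3.6e-06), above the 523, 522 and 199 CPM of LPS alone (0.90 ± 0.21, edgeR adjusted p = 0.0081). Myc, a transcription factor of cell growth, went from 2.86, 3.20 and 3.51 CPM to 23.4, 22.3 and 19.3 CPM (2.78 ± 0.21, edgeR adjusted p = 8e-06). Ier3 and Maff rose by 3.23 and 2.83. Klf4, a factor of resting and alternatively activated macrophages, fell from 9.17, 6.67 and 6.94 CPM to 1.18, 1.58 and 0.662 CPM (-2.74 ± 0.24, edgeR adjusted p = 1.9e-05), and Fos by 1.75 on the log2 scale. For Klf4 the fall with LPS alone was smaller, -0.68, and the difference was -2.06 ± 0.24 (edgeR adjusted p = 0.00039).

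MAP kinase phosphatases and cytokine mRNA decay factors rose more often than they fell. Of 11 MAP kinase phosphatases 8 rose and 1 fell (median 1.24), with Dusp16 at 2.54, Dusp5 at 2.02, Dusp4 at 1.91 and, in the other direction, Dusp22 at -0.71. Dusp5, which acts on nuclear ERK, reached 41.9, 44.6 and 33.9 CPM from 12.3, 10.03 and 7.34 CPM, far below the 156, 198 and 194 CPM of LPS alone (-2.20 ± 0.17, edgeR adjusted p = 7.2e-05). Of 14 cytokine mRNA decay factors 8 rose and 3 fell (median 0.34). Their shares were 57.1% and 21.4%, against 36.6% and 36.9% of all genes. The RNase gene Zc3h12a (Regnase-1) went from 13.1, 9.90 and 11.9 CPM to 109.6, 119.7 and 102 CPM (3.25 ± 0.19, edgeR adjusted p = 2.1e-06), its relative Zc3h12d rose by 2.79, and Zfp36 (tristetraprolin), which binds AU-rich elements, by 2.11. Cnot1, the scaffold of the deadenylase complex, changed by -0.35 and Hnrnpd (AUF1) by -0.31.

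Interferon-stimulated genes rose together and by less than with LPS alone. Of 58 listed genes the table held 54, of which 53 rose and none fell, and 43 passed the stricter threshold. The median was 1.72, against 2.50 with LPS alone, and 52 of the 54 were lower with LPS and torin1 than with LPS alone. The 1 member that was not called was Ly6e, named here after its value was seen. Their summed level was 4019, 8500 and 4971 CPM in control replicates 1, 2 and 3 and 14417, 24282 and 14684 CPM in treated replicates 1, 2 and 3, so replicate 2 stood highest in both groups. The 3 LPS libraries summed to 33405, 34925 and 28991 CPM. Ifit1, which binds foreign RNA ends (chr19:34640871-34650009, plus strand), was at 8.29, 46.6 and 18.5 CPM in control, 144, 385 and 186 CPM with LPS and torin1 and 846, 1071 and 938 CPM with LPS alone. It rose by 3.41 ± 0.33 (edgeR adjusted p = 3.5e-05) and was -2.18 ± 0.31 from LPS alone (edgeR adjusted p = 0.00087).

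Rsad2, the antiviral enzyme viperin, went from 8.72, 50.6 and 25.2 CPM to 218, 935 and 366 CPM, with 1463, 2701 and 1426 CPM in LPS alone. No treated library reached an LPS library, and the change was 4.18 ± 0.31 (edgeR adjusted p = 7.2e-06). Isg15, the ubiquitin-like modifier, rose by 2.68 ± 0.32 (edgeR adjusted p = 0.00013), Zbp1, a sensor of Z-form nucleic acid, by 3.44, and Ifi205 by 3.50. Of 23 interferon regulatory and STAT genes 19 rose and 3 fell (median 0.64). Irf7, the amplifier of type I interferon, rose by 1.79, and Irf4 by 2.78, above LPS alone by 1.43 (edgeR adjusted p = 0.0043). Socs3, a feedback inhibitor of cytokine receptors, rose most of the group, from 7.47, 8.40 and 7.02 CPM to 482, 475 and 347 CPM (5.82 ± 0.12, edgeR adjusted p = 8.7e-08), and Socs1 rose by 2.38. The receptor chains Ifngr1 and Ifnar2 and the factor Irf5 changed by -0.55, -0.47 and -0.80.

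The interferon-stimulated response element ISRE (TTTCNNTTTC, both strands) was in the 250-base window of 16 of the 42 interferon-stimulated genes that had one (38.1%), and in 301 of the 9048 genes of the table (3.33%). Rsad2 had the largest change among the 16, and its window (chr12:26456453-26456702, minus strand, printed 5′ to 3′ on that strand) holds 1 match, in capitals, that begins 120 bases before the start.

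Rsad2: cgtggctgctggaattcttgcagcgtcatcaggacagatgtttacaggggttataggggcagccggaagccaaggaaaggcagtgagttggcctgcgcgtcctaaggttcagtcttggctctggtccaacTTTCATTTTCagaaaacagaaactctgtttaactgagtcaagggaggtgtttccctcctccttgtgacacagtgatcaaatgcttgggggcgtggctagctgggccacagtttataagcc

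Interferon-induced GTPases, which attack the membranes around intracellular pathogens, all rose: 10 of 10 in the table, of 18 listed, all past the stricter threshold, with a median of 3.23 against 4.13 with LPS alone. In the direct comparison 6 of the 10 were lower and 2 higher than with LPS alone. The guanylate-binding protein gene Gbp2 was at 0.699, 4.13 and 1.90 CPM in control, 142, 237 and 119.4 CPM with LPS and torin1 and 122, 124.6 and 71.2 CPM with LPS alone. Its rise was 6.22 ± 0.36 (edgeR adjusted p = 2.1e-06), and its excess over LPS alone was 0.60 ± 0.27 (edgeR adjusted p = 0.11). Gbp2b rose by 6.05 and Gbp5 by 5.92; Gbp2 and Gbp2b are close paralogs whose reads the counting could split. Of 23 genes of MHC class I loading 18 rose and 1 fell (median 0.67, against 0.93 with LPS alone). Nlrc5, the class I transactivator, rose by 1.95, and the peptide transporter genes Tap1 and Tap2 by 1.68 and 1.33. Pdia3 changed by -0.20, and its call was lost without the replicate block, without replicate 1 and without replicate 3.

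Effector enzymes moved both ways. Of 16 genes for nitric oxide, itaconate and prostaglandin metabolism 9 rose (56.25%) and 5 fell (31.25%), with a median of 1.28. Of all genes 36.6% were higher and 36.9% lower, so the share of falls was near that of all genes. Irg1, also called Acod1, makes itaconate and was at 18.7, 81.8 and 34.0 CPM in control and 9257, 9300.3 and 9870.0 CPM with LPS and torin1. The control libraries differed among themselves by more than 4 times and the treated ones hardly, with a rise of 7.89 ± 0.48 (edgeR adjusted p = 2.4e-06) and no difference detected from LPS alone (0.24, edgeR adjusted p = 0.61). Ptgs2, the inducible cyclooxygenase COX-2, went from 73.1, 43.4 and 104 CPM to 3204, 3452 and 3285 CPM (5.55 ± 0.29, edgeR adjusted p = 1.3e-06), and lay below the 7310.1, 5653 and 5411 CPM of LPS alone. Ptgs1, the constitutive cyclooxygenase COX-1, fell from 35.4, 10.4 and 17.97 CPM to 7.83, 2.29 and 2.996 CPM (-2.30 ± 0.15, edgeR adjusted p = 3.5e-06). The leukotriene genes Alox5 and Alox5ap changed by -0.87 and -1.01. Arg2, mitochondrial arginase, rose by 4.62 ± 0.30 (edgeR adjusted p = 3.7e-06), more than with LPS alone by 1.93 (edgeR adjusted p = 0.00062).

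Costimulatory and checkpoint molecules rose in 17 of 19 cases and fell in 1, with a median of 2.35 (2.43 with LPS alone). Tnfrsf1b, the receptor TNFR2, was at 28.5, 42.2 and 34.5 CPM in control and 3230.4, 2602 and 3259 CPM with LPS and torin1, above the 2093, 1439.5 and 1626 CPM of LPS alone. Its rise was 6.42 ± 0.23 (edgeR adjusted p = 3e-07). Cd274 (PD-L1) rose by 4.98 and Cd40, the partner of T-cell CD40L, by 4.55. Havcr2 (TIM-3) fell from 39.7, 24.8 and 55.0 CPM to 6.42, 3.36 and 7.49 CPM (-2.80 ± 0.11, edgeR adjusted p = 3.8e-07), and its difference from LPS alone was -1.48 ± 0.11 (edgeR adjusted p = 7e-05).

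Genes of macrophage identity and scavenging moved both ways, with 15 of 28 higher and 9 lower (median 0.42). Their shares were 53.6% and 32.1%, against 36.6% and 36.9% of all genes, so the share of falls was near that of all genes. Csf1r, the receptor for the growth factor M-CSF, fell from 2563, 2376 and 2389 CPM to 864, 937 and 839 CPM (-1.48 ± 0.11, edgeR adjusted p = 6.2e-06), and lay below the 1121, 1360.2 and 1369.8 CPM of LPS alone. Fcgr2b, the inhibitory Fc receptor, rose from 6.20, 9.99 and 11.6 CPM to 218, 296 and 404 CPM (5.04 ± 0.15, edgeR adjusted p = 2.6e-07), more than with LPS alone by 1.66 ± 0.12 (edgeR adjusted p = 7e-05). Axl, a receptor for apoptotic cells, and Abca1, a cholesterol exporter, rose by 3.85 and 2.14, while Trem2 and Scarb1 changed by -1.44 and -1.06. Among 33 inflammasome and cell death genes 23 rose and 7 fell (median 0.77). The survival genes Bcl2a1a, Bcl2a1b and Bcl2a1d rose by 5.75, 3.23 and 3.54; they are near-identical copies whose counts are uncertain, and Bcl2a1a held 5, 4 and 1 counts in control. Pmaip1 (NOXA) changed by -0.88 and Nlrp1b by -0.65.

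Autophagy genes and their TFEB-family regulators rose in 36 of 43 cases and fell in 5, with a median of 0.75. With LPS alone 21 rose and 12 fell (median 0.13), and 32 were higher and 4 lower with LPS and torin1 than with LPS alone. Sqstm1, the autophagy receptor p62 (chr11:50199366-50210827, minus strand), was at 299, 396 and 283 CPM in control, 1881, 1761 and 2083 CPM with LPS and torin1 and 985, 1208 and 829.9 CPM with LPS alone. The 3 groups did not overlap, and the rise was 2.57 ± 0.15 (edgeR adjusted p = 2.3e-06). Tecpr1, which acts in autophagosome maturation, was at 15.7, 21.2 and 18.7 CPM in control and 68.8, 125.5 and 117.3 CPM with LPS and torin1, but at 11.9, 36.3 and 19.1 CPM with LPS alone. The rise over control was 2.45 ± 0.20 (edgeR adjusted p = 1.4e-05), while LPS alone was not called (0.17, edgeR adjusted p = 0.51) and the difference was 2.28 ± 0.20 (edgeR adjusted p = 0.00011). Map1lc3b, the autophagosome protein LC3B, was at 31.04, 36.5 and 26.4 CPM in control, 65.4, 66.9 and 61.6 CPM with LPS and torin1 and 33.4, 28.99 and 25.6 CPM with LPS alone, a rise of 1.05 ± 0.10 (edgeR adjusted p = 3.6e-05).

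The regulators themselves differed in direction. Tfec rose from 10.9, 15.8 and 14.0 CPM to 71.5, 78.9 and 69.4 CPM (2.43 ± 0.15, edgeR adjusted p = 2.4e-06). Tfeb fell from 16.5, 12.2 and 17.5 CPM to 5.76, 4.30 and 5.37 CPM (-1.57 ± 0.16, edgeR adjusted p = 5e-05), less deeply than the 2.17, 2.73 and 2.99 CPM of LPS alone (0.95, edgeR adjusted p = 0.003). Atg9b and Atg10, of the core autophagy machinery, changed by -1.64 and -0.78.

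**Figure D3:**
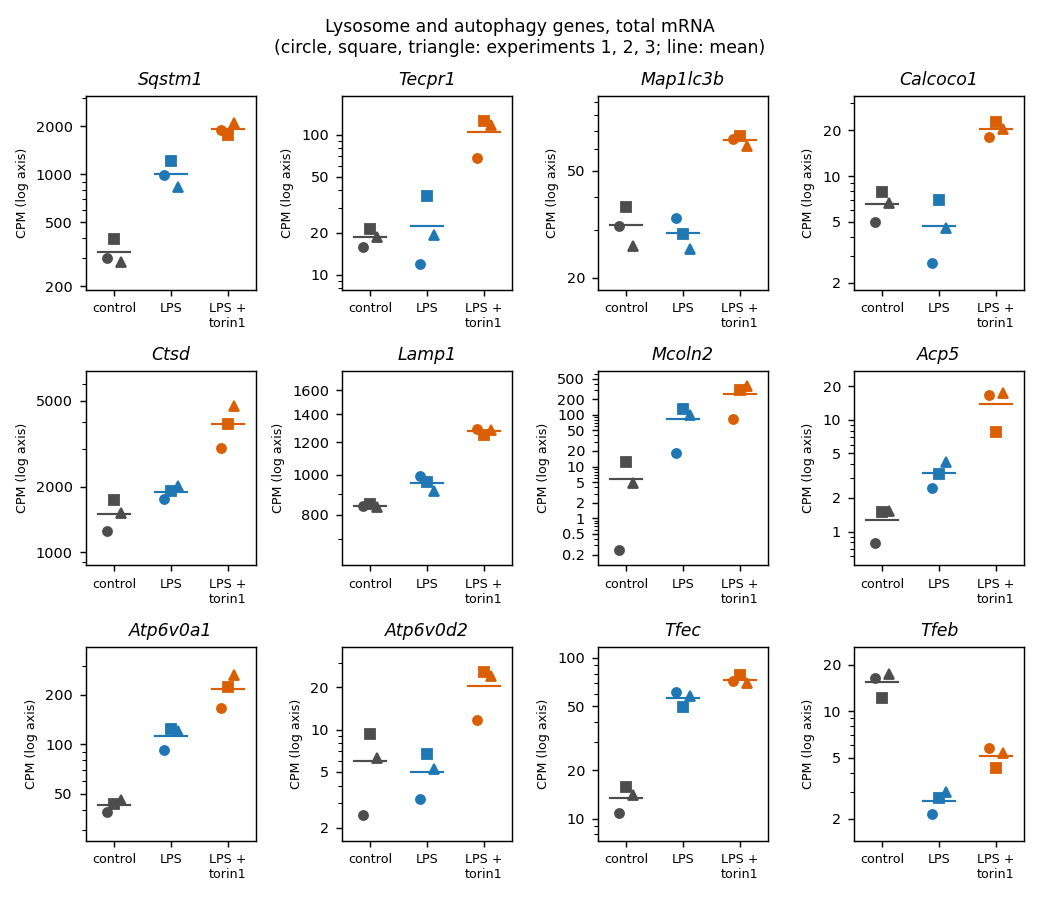
CPM on a log axis of 12 lysosome and autophagy genes in control, LPS and LPS + torin1 cells (horizontal axis), 1 symbol per library with a shape for each of 3 experiments and a line at the mean. The panels other than Tfeb show the LPS + torin1 libraries above control, and Tfeb shows them below control and above LPS alone. The panels are a selection, and other listed genes that fell, such as Atg9b, Atp6v0e2 and Sgsh, are not shown.

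V-ATPase subunits, which acidify the lysosome, rose in 18 of 20 cases and fell in 1 (median 0.66, against 0.25 with LPS alone), and 17 were higher than with LPS alone. Atp6v0a1 was at 38.5, 43.4 and 46.1 CPM in control, 165, 224 and 264 CPM with LPS and torin1 and 92.6, 124.2 and 121 CPM with LPS alone (2.33 ± 0.10, edgeR adjusted p = 4.8e-07). Atp6v0d2 was at 2.46, 9.28 and 6.32 CPM in control and 11.7, 25.7 and 24.04 CPM with the combination (1.84 ± 0.17, edgeR adjusted p = 2.7e-05). With LPS alone it was at 3.20, 6.66 and 5.22 CPM, above control in experiment 1 and below it in experiments 2 and 3. Atp6v0c rose by 1.65, and Atp6v0e2 changed by -0.90.

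Of 62 lysosomal enzymes and membrane proteins 44 rose and 10 fell, with a median of 0.39, while with LPS alone 22 rose and 20 fell around a median of 0.00. In the direct comparison 44 were higher and 7 lower than with LPS alone. Ctsd, the aspartic protease cathepsin D (chr7:142375911-142388038, minus strand), was at 1255, 1745 and 1512 CPM in control, 3020.2, 3895 and 4754 CPM with LPS and torin1 and 1765, 1908 and 2027 CPM with LPS alone. The rise of 1.36 ± 0.12 (edgeR adjusted p = 2.5e-05) exceeded that with LPS alone by 1.01 ± 0.12 (edgeR adjusted p = 0.00044). Lamp1, the abundant lysosomal membrane protein, was at 841, 849.5 and 833 CPM and 1292, 1248 and 1285 CPM (0.60 ± 0.08, edgeR adjusted p = 0.00021). Both pairs of groups were free of overlap, as were those of 61.2% of all genes.

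The largest rises of this list were in Mcoln2, a lysosomal cation channel, and in the osteoclast-type enzymes Acp5 and Ctsk. Mcoln2 went from 0.243, 12.1 and 4.74 CPM to 82.2, 305 and 358 CPM (5.79 ± 0.44, edgeR adjusted p = 8.7e-06), with control replicate 1 far below the other controls. Acp5, tartrate-resistant acid phosphatase, went from 0.790, 1.498 and 1.52 CPM to 16.6, 7.76 and 17.3 CPM (3.40 ± 0.33, edgeR adjusted p = 3.9e-05), and Ctsk, cathepsin K, from 1.12, 5.67 and 3.42 CPM to 14.6, 21.0 and 26.9 CPM (2.70 ± 0.31, edgeR adjusted p = 9.8e-05). Sgsh, a heparan sulfatase, changed by -0.86, Laptm5 by -0.66 and Fuca1, a fucosidase, by -0.46. When scaled by library totals, 18 of the 62 were called lower.

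The E-box core TCACGTGA, a palindrome that TFEB-family factors recognise, was in the window of 8 lysosomal, V-ATPase and autophagy genes (7.92% of those with a window), against 167 of 9048 genes of the table (1.85%). Ctsd had the largest change among the 8. Its window (chr7:142387828-142388077, minus strand, printed 5′ to 3′ on that strand) holds the core in capitals, beginning 99 bases before the RefSeq start used. That start is not the gene's end given above, and most of the window, with the core, lies inside the gene interval given there.

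Ctsd: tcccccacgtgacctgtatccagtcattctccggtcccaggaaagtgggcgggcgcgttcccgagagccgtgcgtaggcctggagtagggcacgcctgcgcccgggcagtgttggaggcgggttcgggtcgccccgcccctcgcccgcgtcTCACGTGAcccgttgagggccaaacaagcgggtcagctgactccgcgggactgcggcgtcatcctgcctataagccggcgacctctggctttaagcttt

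Of 37 mTOR pathway genes 14 were higher and 9 lower, with a median of 0.05 and a share of rises (37.8%) near that of all genes. With library totals 5 were higher and 23 lower, and at an FDR of 0.05 the number higher was 9. Sesn1, a stress-induced inhibitor of mTORC1, fell from 43.3, 30.7 and 43.7 CPM to 8.92, 8.47 and 7.53 CPM (-2.23 ± 0.15, edgeR adjusted p = 4.5e-06), and Deptor, an inhibitory subunit of both complexes, fell by 1.38 on the log2 scale. With LPS alone these genes stood at -2.28 and -1.61. The kinase genes Pik3cg and Pik3ca and the mTORC2 subunit Rictor rose by 0.82, 0.80 and 0.61.

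Among 82 cytosolic ribosomal protein genes, 47 were called higher and 3 lower, with a median change of 0.18 and none past the stricter threshold. With library totals 1 was higher and 31 lower, and without replicate 3 there were 26 higher and 1 lower. Rps9 was at 590.1, 548 and 550.2 CPM in control and 839.9, 905 and 729 CPM with LPS and torin1 (0.54 ± 0.09, edgeR adjusted p = 0.00089). In polysome mRNA, where 3554 genes (31.6%) were higher and 3897 (34.7%) lower in the same comparison, 2 of the 82 were higher and 44 lower with a median of -0.29. Rps16 is uncertain, since its libraries overlapped (96.7, 32.7 and 44.3 CPM against 156, 117.1 and 45.2 CPM) and its rise of 0.83 was lost without replicate 2. Rps27l changed by -0.50 and Rpl21, a gene with many named pseudogenes, by -0.26, the latter not called without replicate 3. Rps29 was at 81.1, 62.9 and 66.9 CPM in control and 105.98, 104 and 83.3 CPM with LPS and torin1 (0.47 ± 0.13, edgeR adjusted p = 0.012), and at -0.55 ± 0.18 in polysome mRNA (edgeR adjusted p = 0.037).

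Of 43 translation factors 22 were higher and 10 lower (median 0.15), and with library totals 5 were higher and 24 lower. The number lower was 5 without replicate 3 and 6 at an FDR of 0.05. Eef2, the elongation factor that moves the ribosome, was at 2444, 2032 and 2378 CPM in control and 4129.7, 4643 and 3872 CPM with LPS and torin1 (0.87 ± 0.16, edgeR adjusted p = 0.0016). The initiation factor genes Eif1a and Eif1 rose by 0.74 and 0.69. The eIF2B subunit genes Eif2b4 and Eif2b1 and the helicase gene Eif4a3 changed by -0.81, -0.54 and -0.44. Ribosome biogenesis went the other way, 32 of 51 genes being lower and 6 higher with a median of -0.26, while with LPS alone 29 were higher and 6 lower (median 0.21). Without replicate 3 the number higher was 2. Rrp1b, a nucleolar protein, fell from 155, 129.5 and 148 CPM to 59.5, 43.9 and 51.4 CPM (-1.49 ± 0.11, edgeR adjusted p = 7.6e-06), Ubtf, an RNA polymerase I factor, by 0.95 on the log2 scale, and Dkc1, the pseudouridine synthase dyskerin, by 0.94. Taf1b was at 0.40, Rrs1 at 0.31 and Gar1 at 0.29, none of which stayed called with library totals.

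Genes of sterol synthesis were lower in 19 of 26 cases and higher in 4, with a median of -0.54. With LPS alone 9 were higher and 7 lower (median 0.06), and 18 were lower than with LPS alone in the direct comparison. Acat2, cytosolic acetoacetyl-CoA thiolase, fell from 31.7, 36.4 and 21.9 CPM to 11.2, 8.07 and 5.89 CPM (-1.85 ± 0.14, edgeR adjusted p = 6.8e-06). Dhcr7, which acts at the end of the pathway, fell from 30.5, 34.2 and 30.1 CPM to 13.2, 13.2 and 13.6 CPM (-1.24 ± 0.11, edgeR adjusted p = 2.8e-05). Both Acat2 and Dhcr7 were lower in every treated library than in every control library, where 61.2% of all genes had groups without overlap. Hmgcs1, the HMG-CoA synthase, rose by 0.43 and Insig2, which retains the sterol sensor in the ER, by 0.22, and neither was called without replicate 3.

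The sterol regulatory element SRE (TCACNCCAC, both strands) was in the window of 1 of the 19 sterol synthesis genes with a window (5.26%) and in 116 of 9048 genes of the table (1.28%). That gene was Hmgcs1, and its window (chr13:119690101-119690350, plus strand, 5′ to 3′) holds the element in capitals, beginning 137 bases before the start.

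Hmgcs1: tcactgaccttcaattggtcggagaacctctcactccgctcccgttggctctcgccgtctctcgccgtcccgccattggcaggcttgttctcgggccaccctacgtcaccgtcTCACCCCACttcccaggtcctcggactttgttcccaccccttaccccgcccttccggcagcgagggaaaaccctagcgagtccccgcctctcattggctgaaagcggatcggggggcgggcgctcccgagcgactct

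Fatty acid synthesis followed, with 12 of 20 genes lower and 4 higher (median -0.55, against -0.31 with LPS alone). Elovl6, the elongase of palmitate, fell from 86.5, 77.1 and 63.8 CPM to 16.2, 16.0 and 11.4 CPM (-2.39 ± 0.11, edgeR adjusted p = 6e-07). Scd2, a stearoyl-CoA desaturase, fell from 1409, 1131 and 798 CPM to 296, 212 and 166 CPM (-2.31 ± 0.11, edgeR adjusted p = 8.3e-07). Both lay below LPS alone, where they were at 31.2, 33.9 and 29.8 CPM and 473, 412 and 365 CPM. Fads2, a delta-6 desaturase, changed by -1.22. Acsl4 and Acsl1, which activate fatty acids, rose by 0.81 and 0.43, and Mid1ip1 by 0.62, a value not called at an FDR of 0.05.

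ATF4 target genes of amino acid synthesis and transport mostly went below control with LPS and torin1 and above it with LPS alone. With LPS and torin1 16 of 29 were lower and 6 higher than control (median -0.49). With LPS alone 19 were higher and none lower (median 0.35), and 26 were lower with the combination than with LPS alone, none higher. Slc7a5, the leucine transporter LAT1, was at 157, 134.6 and 165 CPM in control, 76.6, 72.3 and 71.0 CPM with LPS and torin1 and 173, 213 and 193 CPM with LPS alone (-1.05 ± 0.11, edgeR adjusted p = 5.5e-05). Slc1a4, a neutral amino acid transporter, was at 5.83, 3.02 and 2.87 CPM and 0.592, 1.31 and 0.941 CPM (-1.98 ± 0.38, edgeR adjusted p = 0.0021), against 9.81, 8.07 and 3.71 CPM with LPS alone. Stc2, stanniocalcin-2, and Slc6a9, a glycine transporter, changed by -2.67 and -1.29.

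Asns, asparagine synthetase, was at 149, 133 and 103 CPM in control and 107.4, 105.5 and 103 CPM with LPS and torin1, a change of -0.26 ± 0.18 that was not called (edgeR adjusted p = 0.27). It was at 339.9, 212 and 141 CPM with LPS alone, higher than with the combination in all 3 experiments (-1.05 ± 0.19, edgeR adjusted p = 0.0025). Chac1, a glutathione-degrading enzyme, was likewise not called against control (-0.34 ± 0.30, edgeR adjusted p = 0.35), and its distance from LPS alone was -3.47 ± 0.28 (edgeR adjusted p = 8.7e-05). Among the 6 members that were higher was Slc7a11, the cystine importer xCT, which rose from 83.5, 78.5 and 93.3 CPM to 1001, 486 and 1034 CPM (3.22 ± 0.25, edgeR adjusted p = 1.1e-05), with its partner chain Slc3a2 at 0.87 and Ddit3 (CHOP) at 0.74. Cytosolic tRNA synthetases were lower in 12 of 20 cases and higher in 1 (median -0.25), against 17 higher and 1 lower with LPS alone. Yars, Mars and Cars, which charge tyrosine, methionine and cysteine tRNAs, changed by -0.78, -0.72 and -0.64, and Qars by 0.19, which was not called without replicate 3. With library totals 19 of the 20 were lower.

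Of 34 genes of protein folding in the endoplasmic reticulum (ER) 11 were higher and 10 lower, with a median of 0.00, where LPS alone had 28 higher and 3 lower (median 0.41). The shares with LPS and torin1, 32.4% and 29.4%, were near those of all genes (36.6% and 36.9%). Ppp1r15a (GADD34), a phosphatase subunit that ends the stress-induced block of translation, rose from 18.4, 18.5 and 8.43 CPM to 86.5, 109 and 73.9 CPM (2.62 ± 0.16, edgeR adjusted p = 2.4e-06). Dnajb9 and Herpud1 rose by 1.64 and 1.04. Atf6, a sensor of unfolded protein, fell from 408, 378 and 397 CPM to 165, 161 and 164 CPM (-1.27 ± 0.11, edgeR adjusted p = 1.5e-05), and Sdf2l1 and Dnajc3 changed by -0.78 and -0.49. With library totals 5 of the 34 were higher and 24 lower. Among 21 antioxidant targets of NRF2 10 rose and 7 fell (median 0.20), and without replicate 2 the number lower was 4. Their shares, 47.6% and 33.3%, stood against 36.6% and 36.9% of all genes, and that of falls was near. Hmox1, heme oxygenase-1, rose from 57.7, 68.9 and 70.0 CPM to 297, 242 and 323 CPM (2.12 ± 0.13, edgeR adjusted p = 2.7e-06), and Mgst2, Gclc and Nqo1 changed by -1.58, -0.91 and -0.71, the last not called without replicate 2.

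Glycolysis and hypoxia genes were mixed, with 9 of 33 higher and 14 lower (median -0.14), where LPS alone had 19 higher and 8 lower (median 0.28). The shares with LPS and torin1, 27.3% and 42.4%, were near those of all genes (36.6% and 36.9%). The glucose transporter gene Slc2a1 went from 103, 83.3 and 98.6 CPM to 269, 305 and 347 CPM (1.69 ± 0.11, edgeR adjusted p = 3.2e-06). Hk3, a myeloid hexokinase, rose by 2.39 ± 0.12 (edgeR adjusted p = 1e-06), above LPS alone by 1.52, whereas Hk2 rose by 0.44 ± 0.08 (edgeR adjusted p = 0.0017) with a difference of -0.80 ± 0.08 from LPS alone (edgeR adjusted p = 0.00021). Slc2a6, a lysosomal hexose transporter, rose by 1.81. Pdk1, which inhibits pyruvate dehydrogenase, fell from 77.9, 86.3 and 80.9 CPM to 17.998, 21.0 and 24.9 CPM (-1.95 ± 0.11, edgeR adjusted p = 1.7e-06). The lactate transporter gene Slc16a1 and the mitophagy gene Bnip3 changed by -1.33 and -1.13.

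Pentose phosphate and nucleotide synthesis fell almost as a whole, with 25 of 28 genes lower and 1 higher (median -0.62, against -0.37 with LPS alone). Tyms, thymidylate synthase, went from 66.6, 71.7 and 70.3 CPM to 19.9, 22.01 and 22.8 CPM (-1.69 ± 0.08, edgeR adjusted p = 7.3e-07), and Umps, which completes uridine monophosphate, from 97.0, 83.8 and 90.7 CPM to 29.97, 29.4 and 24.98 CPM (-1.69 ± 0.10, edgeR adjusted p = 2.1e-06). Both were lower than with LPS alone, with differences of -0.94 ± 0.08 and -0.54 ± 0.10 (edgeR adjusted p = 9.3e-05 and 0.0027). Prps2 changed by -1.49, and Impdh1, of guanine nucleotide synthesis, was the 1 gene that rose (0.79).

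DNA replication genes were lower almost throughout, 48 of 50 being lower and 1 higher, 42 past the stricter threshold, with a median of -1.49 against -1.20 with LPS alone. Ung, the uracil-DNA glycosylase, went from 20.9, 18.5 and 18.2 CPM to 0.625, 1.95 and 0.767 CPM (-4.19 ± 0.49, edgeR adjusted p = 0.00011). Ccne2, the S-phase cyclin E2, went from 64.3, 57.7 and 66.0 CPM to 5.001, 7.93 and 6.76 CPM (-3.27 ± 0.16, edgeR adjusted p = 8.3e-07), and Tk1, thymidine kinase, from 96.4, 106.8 and 126 CPM to 10.6, 12.4 and 16.3 CPM (-3.09 ± 0.16, edgeR adjusted p = 1.1e-06). For all 3 genes, named for their large falls, every treated library lay below every control library. The groups did not overlap in 61.2% of all genes. The cell cycle factor Mybl2 (B-MYB) changed by -3.34, against -1.99 with LPS alone. The difference from LPS alone was -1.35 (edgeR adjusted p = 0.0011). The 1 member called higher was Pola2 (0.16), whose call was lost without replicate 2.

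Mitosis genes fell by less: 45 of 50 were lower and 2 higher, with a median of -0.64. With LPS alone the median was -0.88, and 27 of the 50 were higher with the combination than with LPS alone while 8 were lower. Ccna2, cyclin A2, went from 270.0, 280.2 and 271 CPM to 112.8, 107.3 and 105.7 CPM (-1.33 ± 0.09, edgeR adjusted p = 5.5e-06) and no difference from LPS alone was detected (-0.00, edgeR adjusted p = 0.99). Nuf2 and Kif18a, of the kinetochore and spindle, changed by -1.32 and -1.31. Cdc25b, a phosphatase that starts mitosis, was at 0.38 with the combination and -0.41 with LPS alone, and Pttg1 (securin) at 0.26. Of 10 mitochondrially encoded genes 3 were called higher and none lower (median 0.15), and leaving out replicate 1, 2 or 3 gave 7, 0 and 1 higher. These 3, mt-Co1, mt-Nd6 and mt-Cytb, were at 0.23, 0.23 and 0.15 and turned sign with library totals. Among all genes 36.6% were higher and 36.9% lower, so the share of rises among the mitochondrially encoded genes was not larger.

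A further 10 listed genes were named because their change from control had opposite signs with and without torin1 while the direct comparison was called. Tlr13, a sensor of bacterial ribosomal RNA, was at 102, 116 and 83.3 CPM in control, 259, 242 and 232 CPM with LPS and torin1 and 80.01, 80.5 and 43.0 CPM with LPS alone. It was higher than control with the combination (1.302 ± 0.15, edgeR adjusted p = 0.0001) and lower with LPS alone (-0.60 ± 0.15, edgeR adjusted p = 0.0085). Calcoco1, an autophagy receptor, went the same way, at 1.67 and -0.50, and so did Slc40a1 (ferroportin, the iron exporter), at 1.73 and -0.24, although the latter was not called with LPS alone (edgeR adjusted p = 0.31).

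P4ha1, a collagen prolyl hydroxylase, was at 154, 153 and 149.9 CPM in control, 124.4, 147 and 121 CPM with the combination and 351, 301 and 299 CPM with LPS alone. Its change from control was -0.22 ± 0.10 (edgeR adjusted p = 0.075, not called without replicate 3) against 1.05 ± 0.10 with LPS alone. Hyou1, an ER chaperone, was at -0.23 and 0.62, and Yars at -0.78 and 0.26. Map1lc3b, Atp6v0d2, Slc7a5 and Chac1, described above, complete the 10. The change of Chac1 from control was not called and turned to 0.22 without replicate 1, so its sign with torin1 does not hold, and neither Map1lc3b (-0.09) nor Atp6v0d2 (-0.18) was called with LPS alone. Since these genes were chosen for this pattern, the opposite signs are a description.

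**Figure D4:**
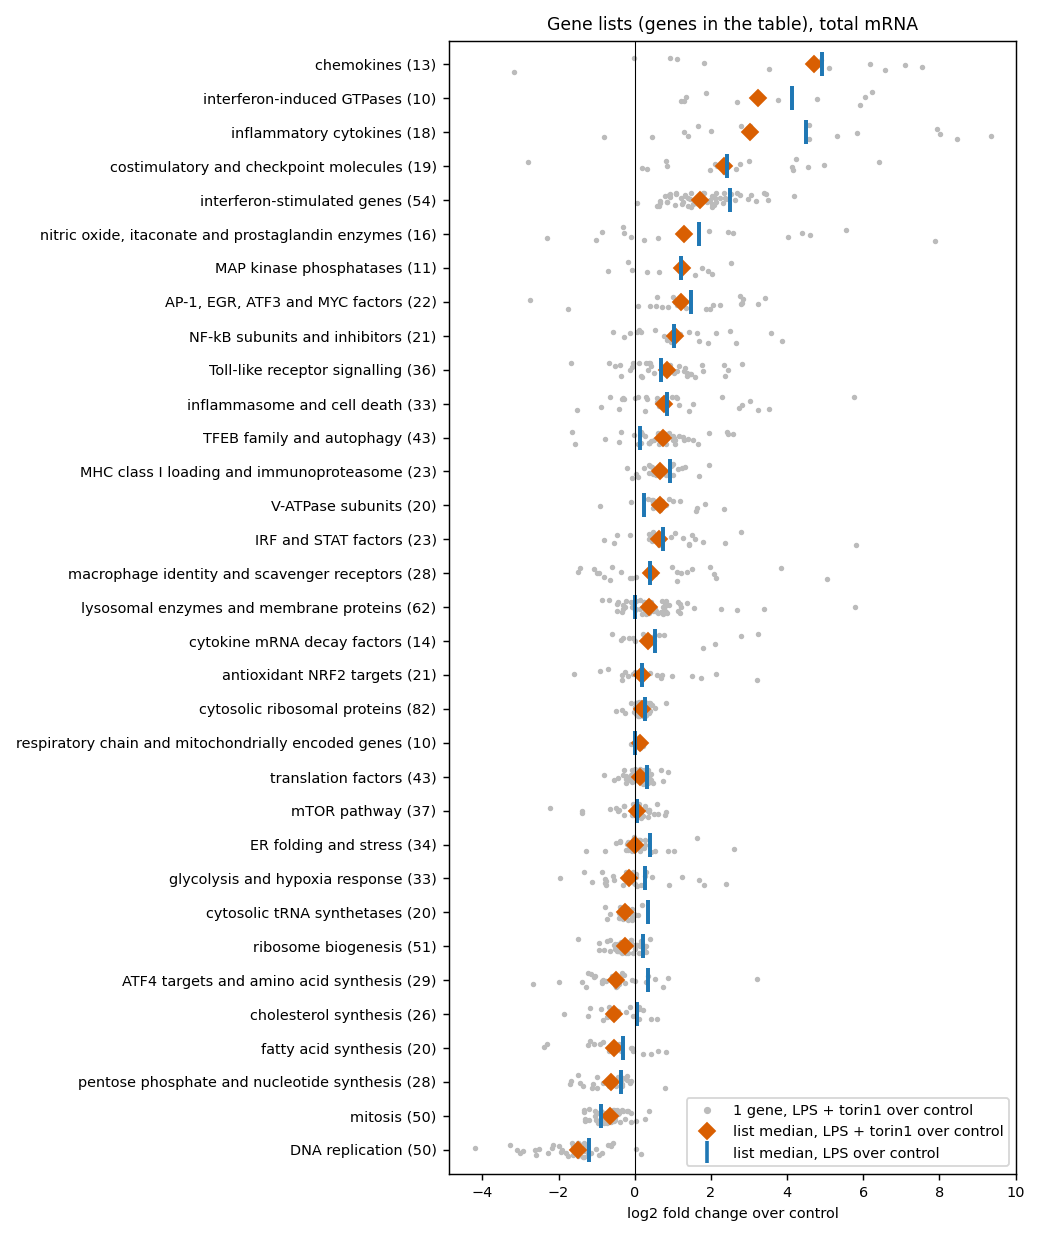
Log2 fold change over control (horizontal axis) for the 33 gene lists (vertical axis, with the number of genes in the table), with 1 grey point per gene for LPS + torin1, an orange diamond at its list median and a blue bar at the list median of LPS alone. Cytokines, GTPases and interferon-stimulated genes have their orange median left of the blue bar, and autophagy, V-ATPase and lysosomal genes have it right of the bar.

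The medians of the following lists kept their side of 0 in all 3 experiments. For interferon-stimulated genes the median of the within-experiment log2 ratios was 2.11, 1.61 and 1.59 in experiments 1, 2 and 3, for inflammatory cytokines 3.07, 3.20 and 3.41, and for chemokines 4.58, 4.71 and 4.15. For autophagy genes it was 0.78, 0.61 and 0.88, and for V-ATPase subunits 0.72, 0.47 and 0.80. Sterol synthesis stood at -0.44, -0.61 and -0.50, and DNA replication at -1.55, -1.47 and -1.44. The experiments thus differed less from each other than these lists differed from the median of all genes, which lay between -0.01 and 0.01.

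**Figure D5:**
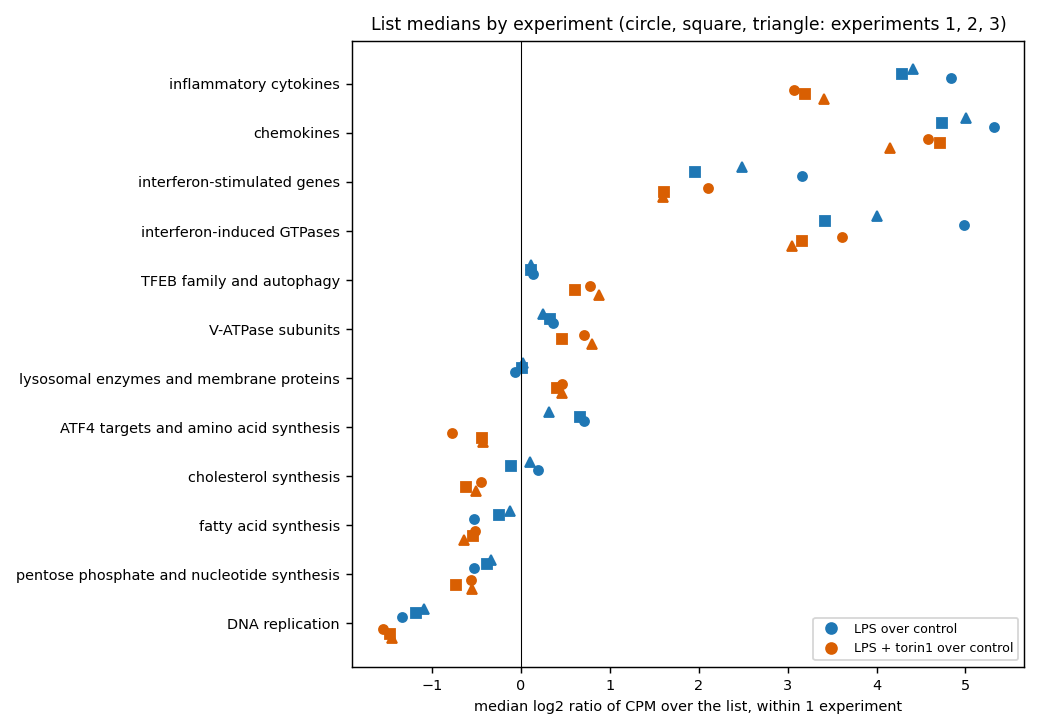
Median log2 ratio of CPM over control (horizontal axis) within each of 3 experiments, shown by symbol shape, for 12 gene lists (vertical axis), in blue for LPS alone and in orange for LPS + torin1. Orange symbols of ATF4 targets and cholesterol synthesis lie below 0, and those of autophagy and lysosomal lists lie above 0 in every experiment.

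In polysome mRNA of the same cultures the largest rises and falls had the same direction and differed in size. Col5a3 stood at 8.68 there against 9.998 in total mRNA, Csf3 at 8.71 against 9.35, Mmp14 at 7.85 against 8.76 and Edn1 at 7.79 against 8.46 on the log2 scale. Flrt3 stood at 7.21 against 7.98, Il1a at 7.18 against 7.95, Serpinb2 at 6.52 against 7.05 and Ccl5 at 6.67 against 7.10. Ccl7 was the 1 of the 12 rises with the higher polysome value, 8.13 against 7.53. Il1b (7.81), Irg1 (7.67) and F10 (6.84) lay within 0.25 of their total mRNA values. The falls differed in both directions. Cytip stood at -6.38 against -5.55, Dgkg at -5.73 against -5.19 and Zfp651 at -4.53 against -3.35. Bmf (-5.12), Angptl4 (-4.17) and Mybl2 (-3.61) were also deeper in polysome mRNA. The rest of the 12 were less deep there: Ung at -4.08 against -4.19, Dmpk at -3.52 against -3.88, Gpr155 at -3.36 against -3.53. Hdac9 stood at -3.42 against -3.48, Slc16a12 at -3.34 against -3.46 and Ccne2 at -3.15 against -3.27. Among the other genes described above, Tnf was at 3.09 in polysome mRNA, Ifit1 at 3.35, Sqstm1 at 2.65, Ctsd at 1.41 and Scd2 at -2.39. Whether total and polysome changes differed was not tested.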

How the data were processed

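Total and polysome mRNA of RAW264.7 cells was sequenced from 3 independent experiments with 3 treatments, 18 libraries in all. The authors removed ribosomal RNA, made stranded libraries and read them from both ends. The authors then ran a nextflow RNA-seq pipeline (version 1.3) with Hisat2, the mouse genome GRCm38 and featureCounts with Ensembl genes, and deposited raw read counts per gene for protein-coding genes with counts in every library. The versions of Hisat2 and featureCounts are not given in the sources used here.

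From these counts, edgeR 4.0.16 in R 4.3.3 scaled the 9 total mRNA libraries by TMM and fitted a quasi-likelihood model with treatment and replicate number, leaving 4 residual degrees of freedom. The authors used anota2seq, and only TMM and the FDR of 0.25 follow the study. p-values were adjusted over 11243 genes by Benjamini-Hochberg, and a gene was called at an FDR of 0.25. SE is the log2 fold change divided by the root of the F statistic. LPS alone and LPS with torin1 were set against the same 3 control libraries, so their changes are not independent. Polysome libraries were fitted alike. The replicate numbers stand for shared experiments: same-numbered libraries deviated together from their group means (mean r = 0.324, lowest 0.149, 9 pairs). On simulated data for the total mRNA comparison, 200 of 11243 genes were given a log2 change of 2 in size, with no difference between experiments. The fit recovered 199 of them, and 61 of 260 calls were unchanged genes. In the real data most genes were called and experiments differed, so this recovery does not gauge the smaller changes reported here.

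Named were the 12 largest rises and 12 largest falls at an FDR of 0.05 with a mean of at least 5 CPM in 1 group, the up to 3 largest called rises and falls of each list with at least 1 CPM, all with the same sign in 3 experiments, textbook LPS, lysosome and metabolism genes whatever their values, and 10 listed genes with opposite signs with and without torin1, and some genes that the rule names are not reported here. The members were set by their labels, but they and the lists were chosen with earlier results of these data known. The counts of list members called are therefore descriptions. Gene positions are of GRCm38 (GENCODE), and upstream windows are of RefSeq GRCm38.p6, in which 9048 of the 11243 genes were matched by name. Intervals on ratios of counts are exact and cover counting error only. Alternatives were fits without the replicate block or with only the 6 libraries, other scalings, a count filter, DESeq2 1.42.0, an FDR of 0.05 and leaving out each replicate. Scaling by library totals was added after seeing the data. Genes that share reads with near-identical copies (Bcl2a1a, Bcl2a1b and Bcl2a1d, Gbp2 and Gbp2b, Rpl21, Rps16, Rps29, Eif1, Atp6v0c, Tyms) or overlap another gene on the same strand (Serpinb2, Ctsd, Scd2, Ifnar2, Commd1) are uncertain.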

Additional observations from a re-analysis of the deposited data

Results flagged for a closer look

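Rps29, a protein of the small ribosomal subunit, changed in opposite directions in the 2 kinds of RNA. In total mRNA it was higher with LPS and torin1 than in control in all 3 experiments (0.47 ± 0.13), and in polysome mRNA lower in all 3 experiments, with a log2 fold change of -0.55 ± 0.18. Whether both changes differ was not tested. Rps29 has named pseudogenes in the annotation, so its counts are uncertain.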

How the results depend on the processing

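The comparison of LPS with torin1 against control in total mRNA gave 3724 higher and 3777 lower genes without the replicate block, 4455 and 4426 with only the 6 libraries, 4162 and 4122 with DESeq2 size factors, and 3867 and 3860 with DESeq2's Wald test. Without 1 replicate at a time it gave 3443 to 4146 higher and 3476 to 3984 lower. Scaling by library totals, chosen after seeing the data, gave 2455 higher and 6584 lower, 1509 lower past the stricter threshold, 1915 and 7395 for LPS alone, and 2180 and 5984 in polysome mRNA. At an FDR of 0.05 the direct comparison with LPS alone kept 2367 higher and 2293 lower, and the polysome comparison 2480 lower. The polysome counts ran from 2282 to 4179 higher and from 2124 to 4307 lower when 1 replicate was left out, the lowest of both without replicate 3. Under library totals the log2 changes turned negative for Insig2 (-0.076), Qars (-0.11), Gar1 (-0.0086), Pola2 (-0.14), Pttg1 (-0.037), mt-Co1 (-0.069), mt-Nd6 (-0.072), mt-Cytb (-0.15) and Tlr4 (-0.19). When 1 replicate was left out, Tlr4 ran from -0.0058 to 0.28 and Chac1 from -0.91 to 0.22. Scaling by library totals lowers every change by about the same amount, and the causes of the other shifts were not tested. Of 1964 values of named genes under all alternatives, 1903 kept direction and call, 43 lost the call, 7 gained it and 11 turned sign. Of 660 list counts 63 moved by over 1.5 times, for instance glycolysis genes lower from 14 to 22 and cholesterol synthesis genes higher from 4 to 1 under library totals. Control libraries with few counts limit the size of the largest rises. With 3 experiments and no torin1 group, the parts of LPS and torin1 cannot be told apart.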
